A study of Mus musculus with 10 samples.

Results

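The genes examined here are the 7 that encode the ATP-gated P2X receptors, *P2rx1* to *P2rx7*. They were taken by their mouse symbols from the 55414 genes counted in each library, and all 7 passed the filter on low counts. Bulk RNA-sequencing was performed on dorsal root ganglia (DRG), which hold the cell bodies of the somatosensory neurons of the body together with their glia, from mouse embryos at E18.5, shortly before birth. There were 5 control and 5 *WD1* cKO embryos, with 1 library each. *WD1* cKO embryos were *Wnt1* Cre/+; *Dach1* flox/flox, so that Cre acted in the neural crest, the source of both the neurons and the glia of the ganglion, and removed the floxed exon 2 of the transcription factor gene *Dach1*. Controls were littermates without Cre, and *Dach1* flox/flox is part of every genotype entry in the labels, so both groups are given with the floxed alleles. The floxed line was kept on a mixed C57Bl/6J and CD1 background. The genotype entries name *Wnt1* Cre/+ for the samples titled control and *Wnt1* +/+ for those titled with Cre. The groups are swapped there compared with the titles, and the titles were followed. The level of *Dach1*, given below, goes with the titles, as it was lower in every library titled with Cre than in every control. The question addressed was whether early loss of *Dach1* alters transcripts in some or in all kinds of somatosensory neurons. The P2X genes bear on part of it only, as some members are best known from nociceptors and others from cells that are not neurons. None was taken as a marker of the TrkB+ touch neurons, with which the paper mainly associated the changes.

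P2X receptors are trimers of subunits that each cross the membrane at both ends of a large extracellular domain, and they open a cation pore when ATP released from damaged or active cells binds between subunits. In DRG they are best known for P2X3 and P2X2, which assemble alone or together in nociceptors and carry ATP-evoked currents. P2X4 and P2X7 are better known from microglia, macrophages and other glia, P2X1 from smooth muscle and platelets, P2X5 from muscle and part of the sensory neurons, and P2X6 as a subunit that rarely works without another.

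The 7 subunits share a short stretch of asparagine, phenylalanine and arginine codons that encodes part of the ATP-contacting surface. It is shown because the longest sequence that any pair of members has in common spans it, which bears on whether reads could be shared between them. The windows below come from the longest coding transcript of each gene in GENCODE's annotation of GRCm38, are written 5′ to 3′, and have the asparagine, phenylalanine and arginine codons in capitals. 
P2rx1: ccaggcttcAACTTCAGAtttgccagg
P2rx2: tcaggctacAACTTCAGGtttgccaaa
P2rx3: cctggctacAACTTCAGGtttgccaaa
P2rx4: cctggctacAATTTCAGGtttgccaag
P2rx5: tctgggtatAACTTCAGGtttgccagg
P2rx6: aaagggtacAACTTCAGGacagccaat
P2rx7: cccggctacAACTTCAGAtatgccaag

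The stretch occurs once in the reading frame of each gene and lies in exon 8 of all 7 transcripts. Of the 27 bases of the window, 14 were the same in all 7 members, and the 21 pairs of members had between 17 and 25 bases in common, with a median of 22. The 6 pairs with *P2rx6* shared 17 to 20 bases and the remaining pairs 20 to 25. *P2rx4* was the only member with AAT as the asparagine codon, and *P2rx1* and *P2rx7* used AGA for arginine where the other 5 used AGG. Over the whole transcripts, the longest run of identical bases between *P2rx2* and *P2rx3* was 26 bases, ggctacaacttcaggtttgccaaata, which covers this stretch and ends just past the window. Across the 21 pairs the longest shared run had a median of 16 bases, and the next longest after *P2rx2* and *P2rx3* was 20 bases.

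Total counts ranged from 20465132 to 27528784 in controls and from 19757596 to 34796562 in *WD1* cKO embryos. Levels are given as CPM, counts per 1000000 of the TMM-scaled library total. The 9 pan-neuronal markers summed to between 7527 and 8057 CPM per library and the 8 glial markers to between 841 and 1048 CPM, so both labelled cell types were present. Red blood cell markers varied most, from 155 to 2468 CPM, and were lower in replicates 4 and 5 than in replicates 1 to 3 of both groups. Control replicate 3 had the highest sum of the 5 spinal cord genes, 27.1 CPM against 10.1 to 14.9 CPM in the other libraries. *Dach1* fell from 37.9 ± 2.40 CPM to 19.99 ± 0.676 CPM (SD, n = 5; log2 fold change -0.92, adjusted p = 5.48e-06 by the quasi-likelihood (QL) test of edgeR after Benjamini-Hochberg (BH) adjustment), and the libraries of the 2 groups did not overlap. The counts cover the whole gene while only the floxed exon 2 is removed, so they do not measure how complete the loss was. By immunostaining, the paper found Dach1 protein extinguished in this line by E18.5. From RNA of whole ganglia alone, fewer cells of a type and less RNA per cell cannot be told apart. The paper counted neurons in thoracic DRG at E18.5 and reported no difference between mutants and controls.

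P2X transcripts of E18.5 DRG were dominated by *P2rx3*. Divided by the joined exon length, its level was 166 ± 6.25 CPM per kilobase in controls (SD, n = 5) and 162 ± 7.45 CPM per kilobase in *WD1* cKO embryos (SD, n = 5). On the same scale, the other 6 members lay between 0.752 CPM per kilobase for *P2rx5* and 3.62 CPM per kilobase for *P2rx7* in controls. By level per kilobase in controls, the order was *P2rx3*, *P2rx7*, *P2rx2*, *P2rx4*, *P2rx1*, *P2rx6* and *P2rx5*. The ranges of the 5 control libraries overlapped between the neighbours *P2rx7* and *P2rx2*, between *P2rx1* and *P2rx6*, and between *P2rx6* and *P2rx5*. Both genes of a pair were measured in the same libraries, and their difference within each library was not tested. The order of the middle members also depended on the length used. With the longest coding transcript in place of the joined exons, a choice made after the data were seen, *P2rx4* moved from 2.11 to 5.49 CPM per kilobase and stood above *P2rx7* at 4.38 and *P2rx2* at 3.94, and *P2rx6* at 1.51 stood above *P2rx1* at 1.25. *P2rx3* was first and *P2rx5* last with either length.

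**Figure D1:**
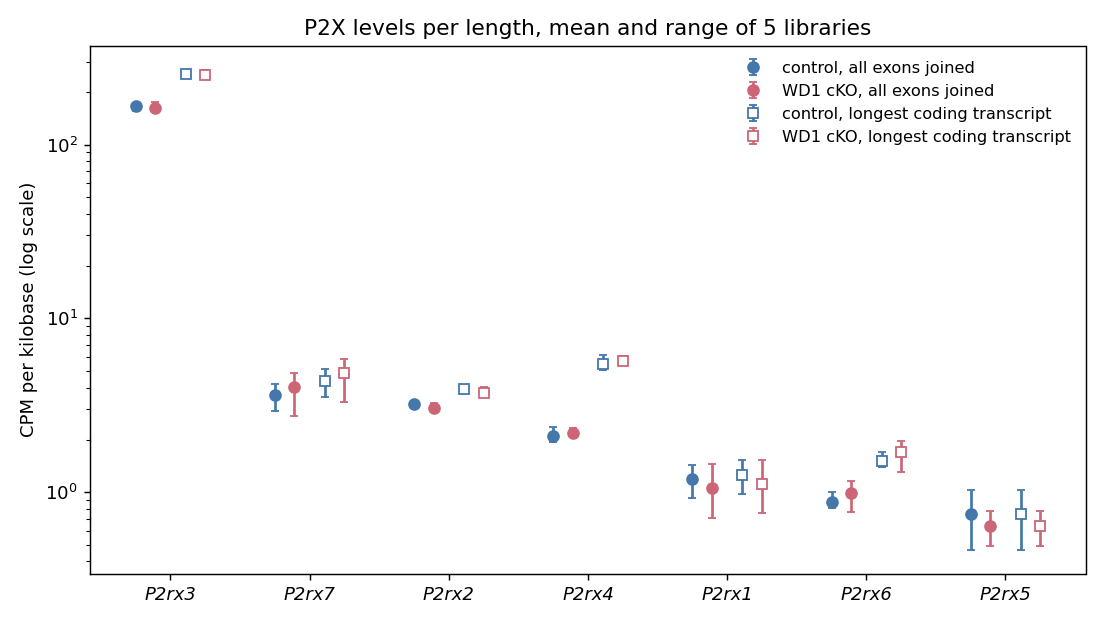
Level of each P2X gene in CPM per kilobase, on a log axis, in control and WD1 cKO DRG. Points are means of 5 libraries and bars their lowest and highest values, filled for the joined exon length and open for the longest coding transcript. P2rx3 sits at 166 CPM per kilobase in controls with joined exons while the means of all other members lie below 6 with either length.

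The share of P2X counts that fell on *P2rx3* was 89.7 ± 0.611% in controls and 89.0 ± 1.21% in *WD1* cKO embryos (SD, n = 5 each), or 93.4% and 93.1% per length. Its excess over *P2rx2*, the partner in nociceptor channels, was 51.7 ± 1.25 times per length in controls and 53.3 ± 2.13 times in *WD1* cKO embryos (SD, n = 5 each). The range of this ratio was 50.5 to 53.4 in controls and 49.9 to 55.7 in *WD1* cKO embryos, so the control values lay within the *WD1* cKO range. With the longest coding transcripts the ratio was 64.9 ± 1.57 in controls and 66.8 ± 2.67 in *WD1* cKO embryos (SD, n = 5 each). Its size thus depended on the length used. The ratio of *P2rx7* to *P2rx4* per length was 1.71 ± 0.137 in controls and 1.83 ± 0.341 in *WD1* cKO embryos, again with overlapping ranges. With the longest coding transcripts it was 0.797 and 0.849, so which of these 2 genes was higher depended on the length.

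None of the 7 P2X genes was called between *WD1* cKO and control DRG in the edgeR QL test after BH adjustment, in which 7 of 17490 genes were called (0.0400%). No member passed the study's own cut-off, which asked for an unadjusted p below 0.005 and a log2 fold change beyond 0.15 either way and which 0.383% of the genes tested passed. At an unadjusted p-value under 0.05 the count was again 0 of 7, against 4.50% of all genes tested, and DESeq2's Wald test also called 0 of 7. The libraries of the 2 groups overlapped for each of the 7 members, while 1.06% of all genes tested did not overlap. Of the log2 fold changes, 4 were below 0 and 3 above it, from -0.23 for *P2rx5* to 0.17 for *P2rx6*, with a median of -0.033, beside a median of 0.00022 over all genes tested.

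**Figure D2:**
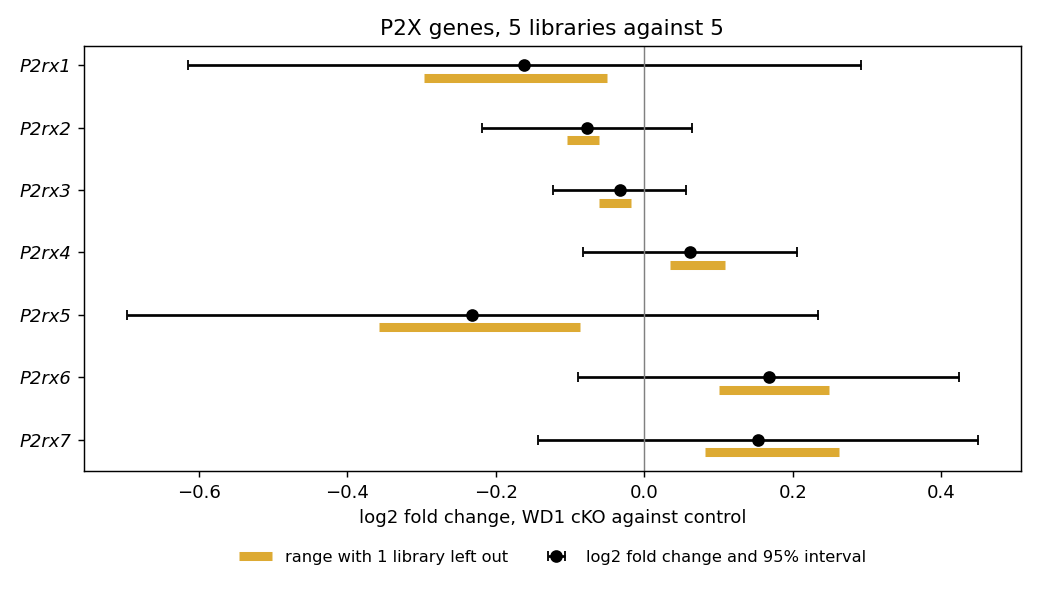
Log2 fold change of each P2X gene, WD1 cKO against control, from the edgeR QL fit. Black points and bars are the estimate and its 95% interval, and the yellow bars span the estimates with each of the 10 libraries left out in turn. All 7 intervals include 0, and the narrowest is that of P2rx3, from -0.12 to 0.056.

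*P2rx3* (ENSMUSG00000027071, chromosome 2) encodes the subunit that defines the fast ATP current of nociceptors. Control replicates 1 to 5 gave 8976, 10712, 9686, 12729 and 10989 counts, which came to 437, 472, 455, 468 and 483 CPM. In *WD1* cKO replicates 1 to 5 the counts were 11571, 11958, 13147, 8861 and 15171, or 487, 454, 435, 450 and 437 CPM. *WD1* cKO replicate 1 was the highest of the 10 libraries and *WD1* cKO replicate 3 the lowest, so the controls lay between them. The group means were 463 ± 17.4 and 452 ± 20.8 CPM (SD, n = 5 each), which ranked *P2rx3* at 244 among the 17490 genes tested. The log2 fold change was -0.033 (standard error 0.041, 95% interval -0.12 to 0.056), with a BH-adjusted p of 1.00 in the edgeR QL test and an exact permutation p of 0.373. As a ratio of the groups, the interval ran from 0.919 to 1.04.

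*P2rx3* had the narrowest interval of the family. Its spread was 3.77% of the mean in controls and 4.59% in *WD1* cKO embryos, while counting error alone would give 0.970% and 0.908%. Nociceptors are the cells in which it is best known. The 6 nociceptor markers summed to between 2423 and 3000 CPM in controls and between 2515 and 2836 CPM in *WD1* cKO embryos, and the 8 markers of nonpeptidergic nociceptors to between 1544 and 2071 CPM and between 1678 and 1922 CPM. None of these 14 marker genes was called after BH adjustment in the edgeR QL test, and 1 gene of each list had an unadjusted p-value under 0.05. In controls, both lists summed higher in replicates 4 and 5 than in replicates 1 to 3, whereas *P2rx3* was not separated by replicate number in either group. On the annotation of GRCm38, 51 exon bases of *P2rx3* overlap *Ssrp1* on the opposite strand, a gene at 120 CPM with a log2 fold change of -0.015.

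*P2rx2* (ENSMUSG00000029503, chromosome 5) encodes the slowly desensitizing subunit that joins P2X3 in heteromeric channels. Its level was 7.84, 8.59, 8.32, 8.20 and 8.35 CPM in control replicates 1 to 5, from 161 to 223 counts. In *WD1* cKO replicates 1 to 5 it was 8.41, 7.51, 7.47, 8.32 and 7.49 CPM, from 164 to 260 counts. The *WD1* cKO libraries fell into 3 values below the lowest control and 2 within the control range. The means were 8.26 ± 0.273 and 7.84 ± 0.480 CPM (SD, n = 5 each), a log2 fold change of -0.077 (standard error 0.065, 95% interval -0.22 to 0.064). The exact permutation p was 0.119, the lowest of the 7 members, where 5 against 5 libraries can reach 0.00794. The spread of *P2rx2* over controls, 3.31%, was below the 7.27% that counting error alone would give at these counts.

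*P2rx7* (ENSMUSG00000029468, chromosome 5) encodes the subunit with the long intracellular tail that needs high ATP and is known from macrophages and from glia, among them the satellite cells around sensory neurons. It was measured at 21.6, 17.5, 21.3, 22.6 and 25.2 CPM in control replicates 1 to 5. The *WD1* cKO replicates 1 to 5 had 16.3, 26.0, 22.7, 29.0 and 26.3 CPM. Replicates 2, 4 and 5 of the *WD1* cKO group were above every control and replicate 1 was below every control, so the *WD1* cKO libraries extended past the controls on both sides. The means were 21.6 ± 2.77 and 24.1 ± 4.88 CPM (SD, n = 5 each), a log2 fold change of 0.15 (standard error 0.136, 95% interval -0.14 to 0.45). The exact permutation p was 0.421.

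No other member with more than 100 counts in each library varied as much between libraries as *P2rx7*. The SD was 12.8% of the mean in controls and 20.3% in *WD1* cKO embryos, against 4.49% and 3.93% for counting error alone. The summed glial markers had their 2 lowest values in the libraries in which *P2rx7* was lowest, *WD1* cKO replicate 1 (841 CPM) and control replicate 2 (852 CPM), and their highest value, 1048 CPM, in *WD1* cKO replicate 4, in which *P2rx7* was highest. The 7 macrophage markers summed to between 60.4 and 67.8 CPM in controls and between 59.2 and 68.0 CPM in *WD1* cKO embryos. Their lowest value in each group also fell in *WD1* cKO replicate 1 and control replicate 2. *WD1* cKO replicate 2, in which *P2rx7* was above every control, was nearly as low at 59.3 CPM. The nociceptor and nonpeptidergic sums were also lowest in control replicate 2 (2423 and 1544 CPM). In the *WD1* cKO group they were lowest in replicate 3 (2515 and 1678 CPM). The part of glial, macrophage or neuronal content in the spread of *P2rx7* was not tested. Without *WD1* cKO replicate 1 the log2 fold change of *P2rx7* was 0.26 with an unadjusted p of 0.0211, and a BH-adjusted p of 0.917 in the edgeR QL test. Without *WD1* cKO replicate 4 it was 0.081.

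*P2rx4* (ENSMUSG00000029470, chromosome 5) encodes a calcium-permeable subunit found in lysosomes and at the surface of many cells, and known in pain research from spinal microglia. The 5 control replicates had 13.7, 13.8, 14.4, 15.5 and 16.7 CPM, from 281 to 421 counts. The 5 *WD1* cKO replicates had 14.6, 14.99, 15.8, 15.5 and 16.5 CPM, from 306 to 571 counts. All *WD1* cKO libraries lay within the control range. The means were 14.8 ± 1.28 and 15.5 ± 0.740 CPM (SD, n = 5 each), a log2 fold change of 0.061 (standard error 0.066, 95% interval -0.082 to 0.21) and an exact permutation p of 0.317.

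**Figure D3:**
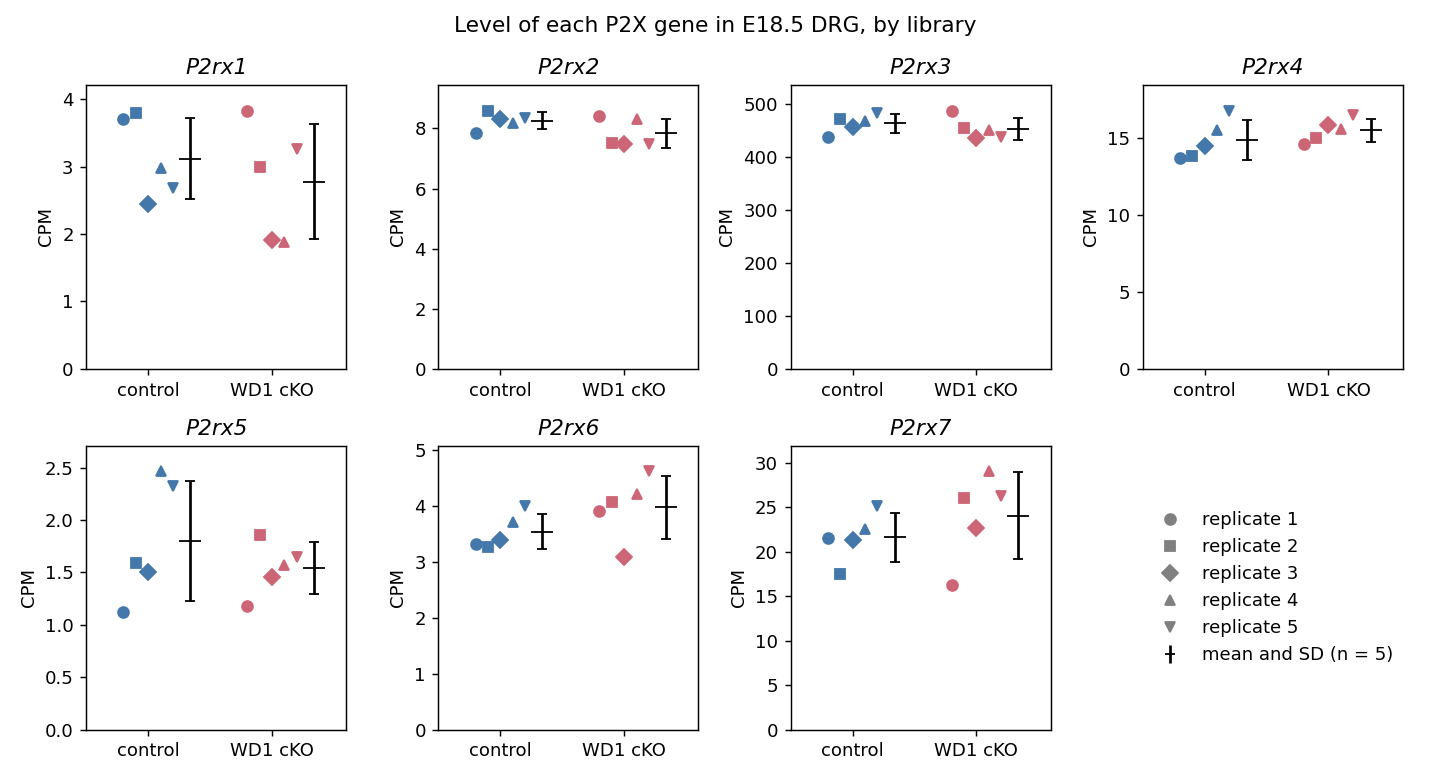
CPM of each P2X gene in each of the 10 libraries, on linear axes that start at 0. Coloured symbols are libraries, with the symbol giving the replicate number, and black bars are the mean and SD of 5 libraries. The groups overlap in all 7 panels, and P2rx1, P2rx5 and P2rx7 have the widest scatter relative to their means.

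*P2rx1*, *P2rx5* and *P2rx6* were detected in every library at 23 to 160 counts. Counting error alone would give a spread of 9.66% to 15.5% at these counts, and the spread between libraries was 8.88% to 31.8% of the mean. *P2rx1* (ENSMUSG00000020787, chromosome 11), the subunit of smooth muscle and platelets, was at 3.70, 3.79, 2.44, 2.98 and 2.68 CPM in control replicates 1 to 5. In *WD1* cKO replicates 1 to 5 it was at 3.83, 3.00, 1.92, 1.88 and 3.26 CPM. Replicate 1 of the *WD1* cKO group was the highest of all libraries and replicates 3 and 4 the lowest. The log2 fold change was -0.16 (standard error 0.208, 95% interval -0.61 to 0.29), between means of 3.12 ± 0.603 and 2.78 ± 0.856 CPM (SD, n = 5 each). The 4 smooth muscle markers summed to between 13.6 and 57.9 CPM and the 5 platelet markers to between 7.97 and 9.63 CPM over the 10 libraries. Their part in the level of *P2rx1* was not tested.

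*P2rx5* (ENSMUSG00000005950, chromosome 11) was the lowest member. Its level was 1.12, 1.59, 1.50, 2.46 and 2.33 CPM in control replicates 1 to 5, from 23 to 67 counts. In *WD1* cKO replicates 1 to 5 it was 1.18, 1.86, 1.46, 1.57 and 1.64 CPM, from 28 to 57 counts. Control replicates 4 and 5 were the highest of the 10 libraries, and all *WD1* cKO libraries lay within the control range. The log2 fold change was -0.23 (standard error 0.214, 95% interval -0.70 to 0.23). The mean log2 difference was 0.083 within replicates 1 to 3 and -0.56 within replicates 4 and 5. Leaving out control replicate 4 brought the log2 fold change to -0.086, and leaving out control replicate 1 brought it to -0.36. With a term for replicate numbers 4 and 5 it was -0.20. The 6 skeletal muscle markers, another known site of this subunit, summed to between 24.7 and 198 CPM in controls and between 50.1 and 107 CPM in *WD1* cKO embryos. Whether muscle contributed to *P2rx5* was not tested.

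*P2rx6* (ENSMUSG00000022758, chromosome 16) was at 3.31, 3.26, 3.38, 3.71 and 4.00 CPM in control replicates 1 to 5 and at 3.91, 4.06, 3.08, 4.21 and 4.61 CPM in *WD1* cKO replicates 1 to 5. In the *WD1* cKO group 3 libraries were above every control and 1 was below every control. The log2 fold change was 0.17 (standard error 0.118, 95% interval -0.089 to 0.42), with an exact permutation p of 0.206. Leaving out the low library, *WD1* cKO replicate 3, gave 0.25 with an unadjusted p of 0.0346 and a BH-adjusted p of 0.999 in the edgeR QL test. Without *WD1* cKO replicate 5, the highest library, it was 0.10 with an unadjusted p of 0.423 in the same test. The level of *P2rx6* is uncertain, because 554 of its 3995 exon bases overlap *Slc7a4*, a gene on the opposite strand at 27.3 CPM, and the strand setting of the counting is not given in the sources used here. *Slc7a4* itself had a log2 fold change of -0.033.

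**Figure D4:**
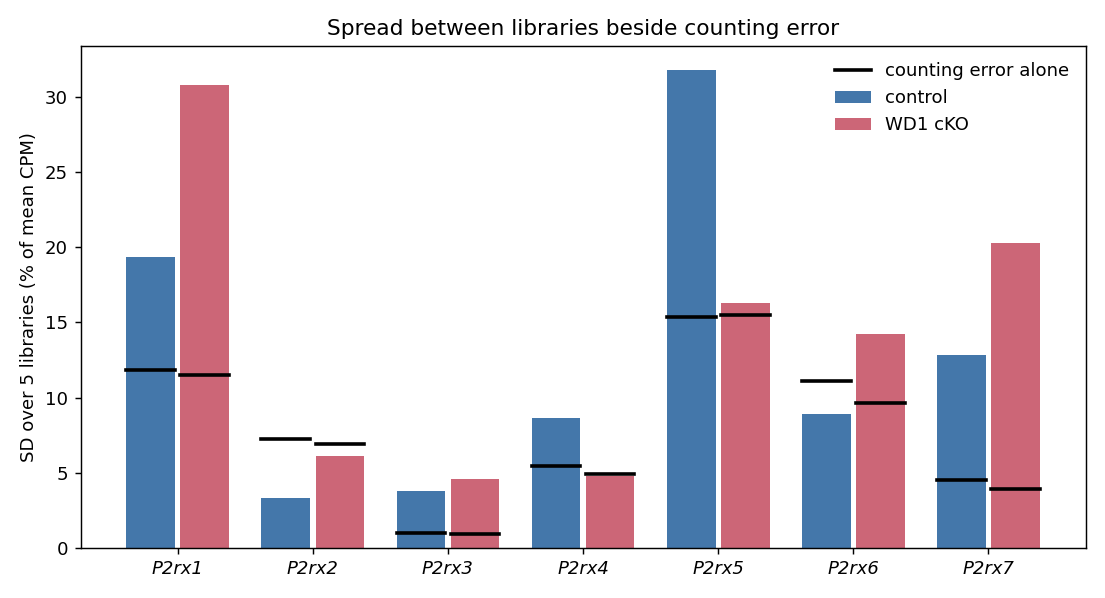
SD over 5 libraries as a percentage of the mean CPM for each P2X gene, in control and WD1 cKO DRG. Horizontal black lines mark the spread that counting error alone would give at the mean count. P2rx7 has the largest spread among the members with over 100 counts in each library, with 20.3% against 3.93% in WD1 cKO DRG. P2rx3 also lies above its line, with 3.77% against 0.970% in controls and 4.59% against 0.908% in WD1 cKO DRG, while P2rx2 lies below it in both groups.

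The median absolute log2 fold change was 0.15 over the 7 members and 0.053 over all genes tested, and the members with the largest values were those with wide scatter or few counts. Of the 7 members, 4 (*P2rx4*, *P2rx5*, *P2rx6* and *P2rx7*) had control replicates 4 and 5 both above control replicates 1 to 3, as had 17.8% of the genes tested. In the *WD1* cKO group this held for *P2rx6* and *P2rx7*, and for 17.4% of the genes tested. The labels give no batch, litter or date for these replicate numbers. Within replicates 1 to 3 the mean log2 difference between the groups was 0.011 for *P2rx3* and 0.087 for *P2rx7*, and within replicates 4 and 5 it was -0.10 and 0.21. Without control replicate 3, the library with the highest spinal cord genes, the log2 fold changes of the 7 members ran from -0.29 for *P2rx5* to 0.15 for *P2rx6* and *P2rx7*.

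For the 3 members above 10 CPM, the genes whose log2 CPM followed them most closely over the 10 libraries were sought among 15335 genes. *P2rx3* was followed by *Tecpr2* (Pearson r = 0.94, Spearman rho = 0.92), *Atcay* (0.90, rho = 0.89) and *Arfgap2* (0.89, rho = 0.87). *P2rx4* was followed by *Htr1d* (r = 0.94), which encodes a serotonin receptor, by *Ifit2* (r = 0.94), an interferon-induced gene, and by the sulfatase gene *Arsk* (r = 0.93). *P2rx7* was followed by *Egfl8* (r = 0.96), by *Gjc3* (r = 0.96), which encodes a gap junction protein of myelinating glia, and by *AC124169.1* (r = 0.96). *Gjc3* ranged from 30.1 to 47.6 CPM in controls and from 28.2 to 67.0 CPM in *WD1* cKO embryos. Spearman's rho was 0.92, 0.89 and 0.92 for the 3 genes named with *P2rx4*, and 0.90, 0.98 and 0.84 for those named with *P2rx7*. Without the 2 libraries farthest from the median of the member, r was 0.86 for *Tecpr2*, 0.87 for *Atcay* and 0.89 for *Arfgap2*. It was 0.88 for *Htr1d*, 0.91 for *Ifit2* and 0.91 for *Arsk*. For *Egfl8* it was 0.92, for *Gjc3* 0.96 and for *AC124169.1* 0.87. These values describe 10 libraries that differ in depth and cell content, and each gene was picked as among the highest of all candidates. The part of cell content in these correlations was not tested.

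The other genes of purinergic signalling were examined in 6 lists of 38 genes, of which 33 passed the filter. None was called by the edgeR QL test after BH adjustment or by DESeq2's Wald test, none passed the study's cut-off, and 1 had an unadjusted p-value under 0.05, against 4.50% of all genes tested. Of the 33, 16 had a log2 fold change below 0 and 17 above it, with a median of 0.017. The exception was *Enpp1*, chosen for mention after its values were seen, an enzyme that splits extracellular ATP into AMP and pyrophosphate. Its level was 7.10 ± 1.26 CPM in controls and 9.25 ± 1.59 CPM in *WD1* cKO embryos (SD, n = 5 each; log2 fold change 0.38, 95% interval 0.073 to 0.69), with overlapping libraries and an adjusted p of 1.00 in the same test.

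Among the metabotropic receptors, 7 of 9 P2Y genes were tested, 3 below and 4 above 0 on the log2 scale. The most abundant were *P2ry1*, a receptor for ADP, at 34.2 ± 3.77 CPM in controls and 36.3 ± 1.91 CPM in *WD1* cKO embryos (SD, n = 5 each), and *P2ry2*, a receptor for ATP and UTP, at 19.6 ± 1.36 and 19.95 ± 2.45 CPM (SD, n = 5 each). Of the 4 adenosine receptor genes 3 were tested, with a median log2 fold change of -0.19. *Adora1*, the inhibitory receptor of nociceptor terminals, was at 21.9 ± 4.05 CPM in controls and 18.2 ± 3.04 CPM in *WD1* cKO embryos (SD, n = 5 each; log2 fold change -0.27, 95% interval -0.57 to 0.024). *Adora2a*, which stimulates adenylyl cyclase, had a log2 fold change of -0.19 with a 95% interval from -0.47 to 0.082.

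The ectonucleotidases, which remove ATP and form adenosine at the cell surface, had 8 of 9 genes tested, 2 below and 6 above 0, with a median log2 fold change of 0.055. *Acpp*, the acid phosphatase that dephosphorylates AMP on nociceptors, was the most abundant at 207 ± 45.9 CPM in controls and 201 ± 32.5 CPM in *WD1* cKO embryos (SD, n = 5 each). *Entpd2*, an ATP-hydrolysing enzyme of glia, was at 51.6 ± 2.92 and 52.2 ± 3.31 CPM (SD, n = 5 each). The ATP release list had 7 of 8 genes tested and a median log2 fold change of -0.032. In it *Gja1*, the gap junction protein gene of satellite glia, was at 141 ± 29.1 and 144 ± 32.0 CPM, and *Panx1*, a channel through which ATP leaves cells, at 110 ± 3.15 and 108 ± 2.96 CPM (SD, n = 5 each).

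All 4 genes of adenosine uptake and metabolism were tested, with a median log2 fold change of -0.041. *Adk*, the kinase that returns adenosine to AMP, was at 44.3 ± 8.76 and 45.0 ± 7.42 CPM, and the nucleoside transporter gene *Slc29a1* at 24.4 ± 2.88 and 25.2 ± 1.42 CPM (SD, n = 5 each). *Slc29a2*, another transporter gene chosen after its values were seen, was the only one of the 33 whose groups did not overlap, as 1.06% of all genes tested did not, with 15.2 to 15.6 CPM in controls and 13.2 to 14.9 CPM in *WD1* cKO embryos. The log2 difference came to -0.10 (standard error 0.049, 95% interval -0.21 to 0.0053), with a BH-adjusted p of 1.00 in the edgeR QL test and an exact permutation p of 0.00794, the smallest that 5 against 5 libraries can give. The spread of *Slc29a2* was 1.18% in controls and 4.51% in *WD1* cKO embryos, below the 5.33% and 5.09% that counting error alone would give. Of the 4 genes for proteins reported to bind P2X subunits, all tested, *Pirt*, a membrane protein of sensory neurons, was at 1038 ± 43.2 and 1020 ± 24.0 CPM, and *Apbb1*, an adaptor protein of neurons, at 287 ± 13.9 and 273 ± 9.67 CPM (SD, n = 5 each).

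**Figure D5:**
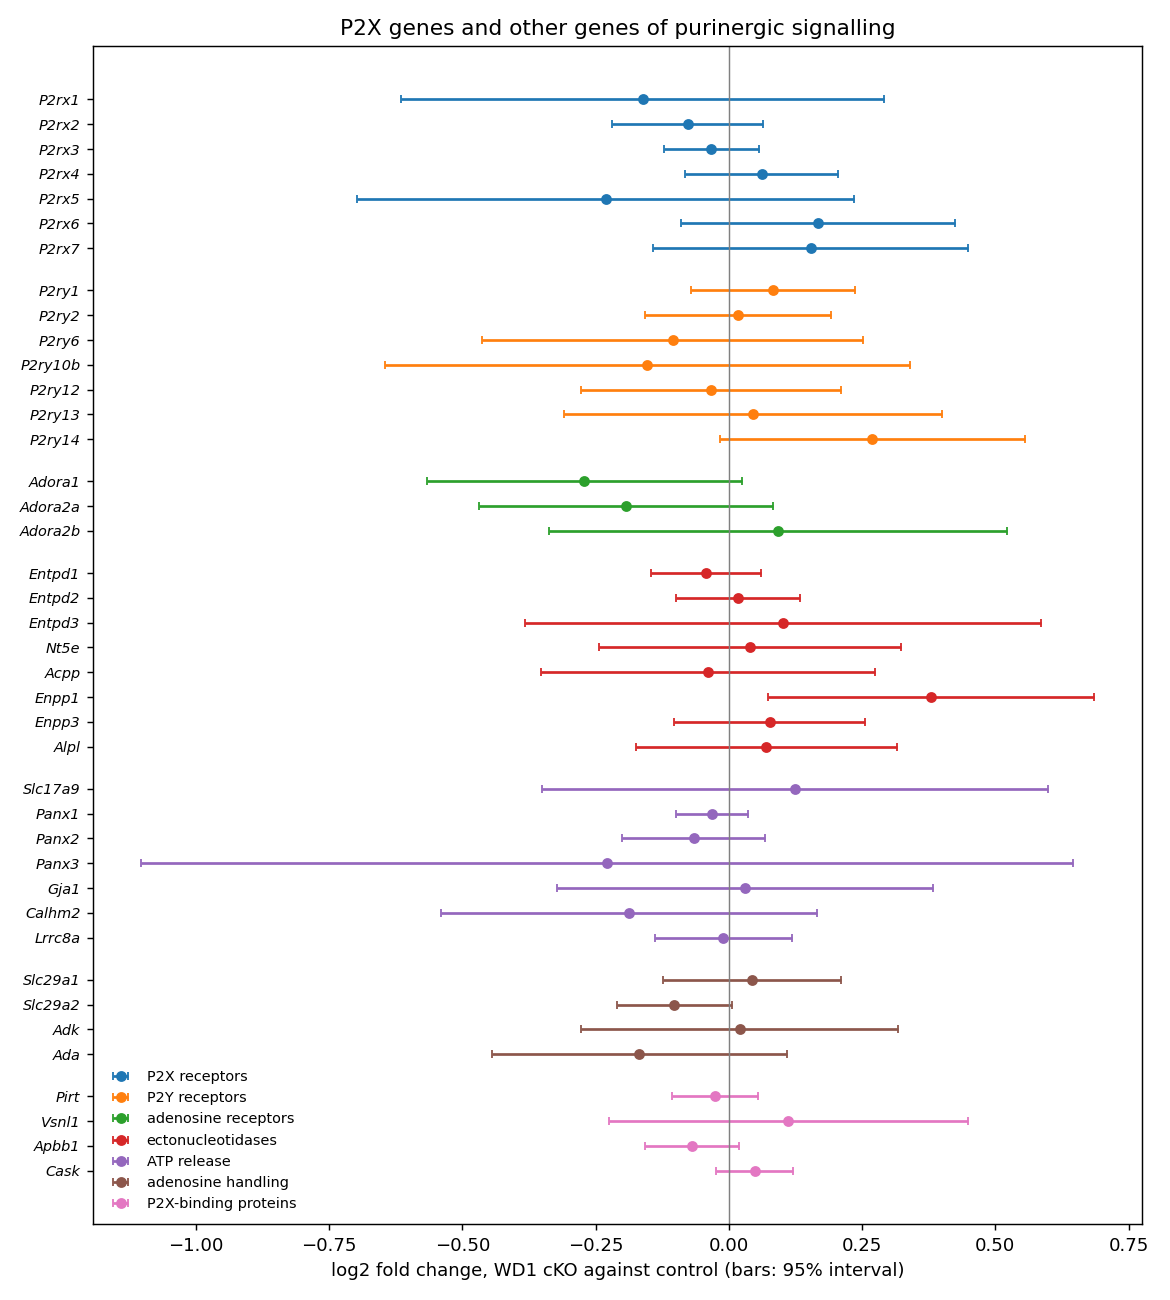
Log2 fold change, WD1 cKO against control, with its 95% interval for the 7 P2X genes and the 33 tested genes of 6 purinergic lists, coloured by list. Of the 40 intervals shown the only one that does not include 0 is Enpp1, from 0.073 to 0.69, whose adjusted p was 1.00 in the edgeR QL test.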

How the data were processed

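Bulk RNA-sequencing was done on DRG of 5 control and 5 *WD1* cKO embryos from stranded mRNA libraries. Per the submitters' processing notes, bcl2fastq 2.20.0.422, STAR 2.7.8a on GRCm39 and featureCounts 2.0.1 were used. The authors deposited raw counts of reads per gene, without normalization. The strand setting and the treatment of multi-mapping reads are not given in the sources used here. A GENCODE table gave a symbol for 52081 of 55414 identifiers. Lengths, chromosomes, overlaps and sequences came from GENCODE's annotation of GRCm38, another build than that of the counts, so no coordinates are given.

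The filter required 10 counts in 5 or more libraries and left 17490 genes. In R 4.3.3, edgeR 4.0.16 scaled the counts by TMM and compared the groups with its quasi-likelihood (QL) test, with no block and no covariate. P-values were adjusted by Benjamini-Hochberg (BH) across all genes tested. Log2 fold changes are *WD1* cKO against control, and their 95% intervals come from the same fit. Exact permutation tests were two-sided and used log2 CPM (prior count 1). Counting error alone is the Poisson spread at each group's counts. Library totals, from 19757596 to 34796562, set the counting error but not the rest of the spread between libraries. Replicates were never as close as repeats of the same library would be (lowest chi-square per degree of freedom 4.33). Each library was treated as 1 replicate, which this comparison alone cannot establish.

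The genes named were the 7 members, *Dach1*, in each purinergic list the genes called and the 2 most abundant, and the 3 genes most like each member above a mean of 10 CPM. Others are named as chosen later. The members and lists were chosen with earlier results of these data known. Alternatives comprised size factors and the Wald test of DESeq2 1.42.0, leaving the filter out, a filter at a mean of 100 counts, the replicate number as a block, a term for replicate numbers 4 and 5, an *Xist* covariate, robust dispersions and each library left out in turn. The scripts were tested on simulated data.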

Additional observations from a re-analysis of the deposited data

How the results depend on the processing

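No P2X gene and no gene of the purinergic lists was called, and no P2X gene passed the study's cut-off, under any alternative that was run. The log2 fold changes of the 7 members kept their sign in all 123 refits, with adjusted p-values from 0.736 to 1.00 (edgeR QL test or DESeq2, BH-adjusted). With 1 library left out they ranged from -0.30 to -0.050 for *P2rx1*, from -0.10 to -0.061 for *P2rx2*, from -0.061 to -0.018 for *P2rx3*, from 0.034 to 0.11 for *P2rx4*, from -0.36 to -0.086 for *P2rx5*, from 0.10 to 0.25 for *P2rx6* and from 0.081 to 0.26 for *P2rx7*. The filter at a mean of 100 counts left out *P2rx1*, *P2rx5* and *P2rx6*, for which it gave no value. All refits reused most or all of the same libraries, so a kept sign is weak evidence. Between replicates 1 to 3 and replicates 4 and 5 the mean log2 difference changed sign for *P2rx3* (0.011 and -0.10) and *P2rx4* (0.11 and -0.0095). It also did for *P2rx5* (0.083 and -0.56), but not for *P2rx1*, *P2rx2*, *P2rx6* and *P2rx7*.

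The number of genes called over all genes tested, 7 as reported, came to 4 under the filter at a mean of 100 counts, 19 in DESeq2's Wald test, 11 with the term for replicate numbers 4 and 5, 4 with *Xist* as a covariate, and 3 to 6 with 1 library left out. The cause was not tested. With the replicate number as a block it was 8, genes at an unadjusted p under 0.05 went from 787 to 1241, and no member was called. Deviations of same-numbered libraries correlated at 0.040 to 0.390, over 0.1 in 4 of 5 pairs, and 7 of 10 libraries correlated best with their own number, a hint of shared structure in the data. The labels do not say what a number shares, so the block was not used as the design. Mean levels of the members moved by less than 1 SD with DESeq2's size factors. With 1 library left out they also did, but dropping 1 of 5 values can hardly move a mean by 1 SD. That comparison therefore says nothing about how stable the levels were. *P2rx1*, *P2rx5* and *P2rx6* had at most 160 counts in a library, and the spread of *P2rx1* and *P2rx5* in controls was also above counting error.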
